A study of Mus musculus with 10 samples.

Results

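The cultures described here are the controls of an experiment on mouse primary cortical neurons, chosen by their control label. They are 4 of the 10 arrays of the experiment, 2 at 24 h and 2 at 48 h, and the other 6 arrays are cultures with lactacystin, an inhibitor of the proteasome. All cultures came from the foetal neocortex of Swiss albino mice at gestation day 15 or 16 and were at day 5 when the experiment began, with lactacystin given at 1 µM in a serum-free medium to the treated ones. No genetic change is named for any group, and the stated agent of the 4 arrays is control alone. The labels leave unsaid whether the controls were given DMSO, in which the lactacystin stock was dissolved. They also leave unsaid whether the 2 arrays of a time were from separate cultures or from pooled embryos. The p-values below therefore measure the spread between these arrays, which may be technical.

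Cortical neurons taken before birth are largely past their last division and regrow axons and dendrites in culture, supported by abundant tubulin, actin-binding proteins and the growth-cone proteins. Over the following days such cultures build synapses, while the few progenitors and glia that come along with the tissue can divide or mature. Serum-free medium is commonly used to hold the growth of glia back. Glutamatergic projection neurons arise within the cortical wall, and GABAergic interneurons migrate in from the ganglionic eminences, so both kinds can be present in a culture of the foetal cortex.

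RNA was measured on Affymetrix arrays, where a probe set is a group of short oligonucleotides that together report on 1 transcript. Each control group held 1 array of the design U74A (replicate 1) and 1 of its revision U74Av2 (replicate 2), so replicate number and design cannot be told apart in the controls. The designs had 9977 probe sets in common, which stood for 7417 named genes. Signals were scaled so that the trimmed mean of each array was 500, and log2 values are those of the scaled signal plus a pseudocount of 32. The correlation of log2 signals between arrays of 1 design at the 2 times was 0.98 in both designs, and between arrays of different designs it was 0.94 to 0.95, over 6984 probe sets. The ratio of the 3′ to the 5′ probe set of Gapdh, a sign of RNA length and labelling, was 0.72 at 24 h and 0.79 at 48 h on U74A, and 1.62 and 2.48 on U74Av2. The share of signals under the pseudocount was 20.7% and 20.1% on U74A and 23.9% and 27.8% on U74Av2, at 24 h and 48 h in turn. The later U74Av2 array thus had the highest Gapdh ratio and the most low signals of the 4 controls.

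In the control cultures all measured genes of a neuronal marker list were read in every array, and genes of radial glia and progenitors were read beside them. Of the 7417 named genes, 4988 (67.3%) lay above a scaled signal of 54.7 in all 4 control arrays, the limit under which probe sets were left out of tests, and 1443 (19.5%) lay above it in none. In every cell type list but the neuronal one, fewer than all measured genes reached that limit in all 4 arrays. The counts were 12 of 14 for interneurons, 8 of 10 for projection neurons, 9 of 11 for astroglia and 7 of 8 for progenitors. They were 6 of 11 for fibroblasts and mural cells, 6 of 14 for microglia and 3 of 7 for the oligodendrocyte lineage. Red cells had 2 of 7 and endothelium 0 of 8. Between 24 h and 48 h no probe set passed the test in the controls. The values of cell cycle and DNA replication genes and of ATF4 and amino acid stress genes were mostly lower at 48 h within both designs, without any of them passing.

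The brightest probe sets were those of the cytoskeleton of growing neurites and of protein synthesis. Signals of different probe sets depend on their oligonucleotides and are not on 1 scale, so a place among the brightest describes the arrays and gives no order of abundance. Tuba1a, the alpha-tubulin of young neurons, had scaled signals of 20918 and 21305 at 24 h and 21911 and 24461 at 48 h (U74A first, U74Av2 second, here and below). Its mean was 22148 ± 1595 (SD, n = 4 arrays), the highest of any named gene. Near-identical family members, among them Tuba1a, Tuba1c, Tubb2a and Tubb5 of the tubulins and Actg1 of the actins, may share signal, and their separate values are uncertain. Of the 25 genes with the brightest probe sets, 5 encode tubulins or the microtubule-binding protein tau (Tuba1a, Tuba1c, Tubb2a, Tubb5 and Mapt), and Stmn1 and Stmn2 encode stathmins, which take microtubules apart. Tau, from Mapt, had a mean signal of 14198 ± 1094 (SD, n = 4).

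The growth cone and its actin were represented by Basp1, a membrane protein of growth cones, with 18201 ± 1236 (SD, n = 4), and by the actin monomer binders Tmsb10 with 16230 ± 1963 and Tmsb4x with 14697 ± 1500. Protein synthesis gave Rpl41, Rps24, Rplp0 and Rps28 of the ribosome and the elongation factor Eef1a1, which lay at 20075 ± 810 (SD, n = 4). Tpt1, an abundant protein of growing cells, Ybx1, an RNA-binding protein, and Gnas, the stimulatory G protein subunit, were also in this set. Neuronal membranes and lipids were represented by Rtn1 of the endoplasmic reticulum, Scd2, a fatty acid desaturase, Cd24a, a surface glycoprotein of young neurons, and Nnat, a small imprinted membrane protein. Fabp7, the fatty acid binding protein of radial glia, closed the set with 14769 and 10211 at 24 h and 14521 and 10362 at 48 h. Its 2 U74A values were above both U74Av2 values, and the times overlapped. Gm15772, a predicted gene, was the remaining member. From 23 to 25 of these 25 genes stayed in the set under each of 17 other settings of processing.

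**Figure D1:**
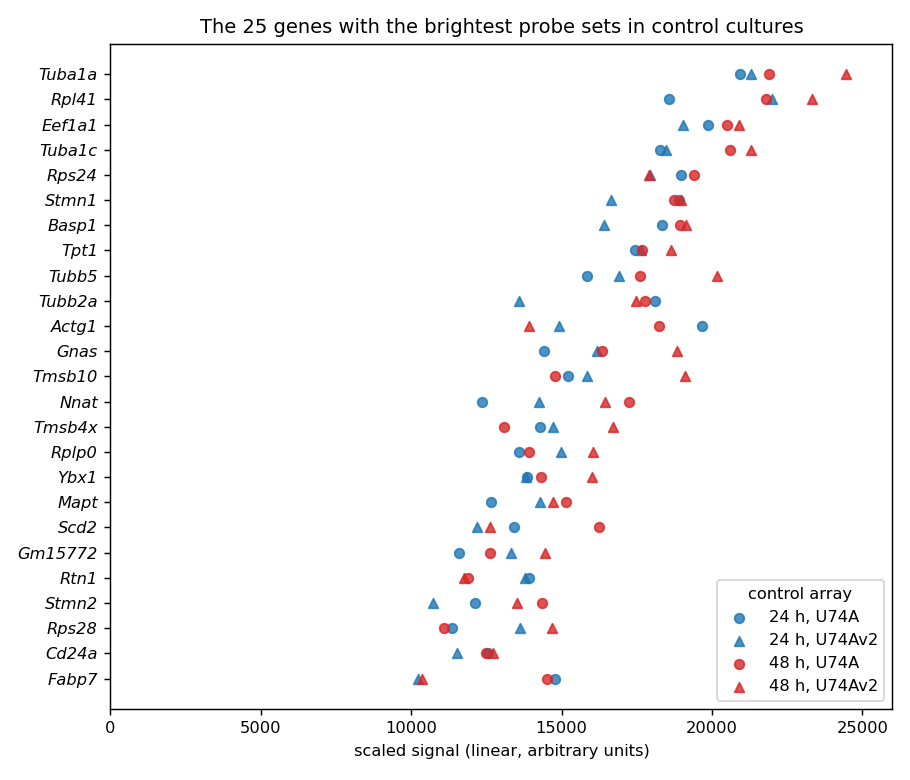
Scaled signal (linear axis, arbitrary units) of the 25 named genes with the highest mean log2 level over the 4 control arrays, 1 point per array, with circles for U74A, triangles for U74Av2, blue for 24 h and red for 48 h. Tuba1a lies farthest to the right at 20918 to 24461, and for Tuba1a and Stmn2, among others, both 48 h points lie to the right of both 24 h points.

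The defining neuronal markers were bright in every control array. Stmn2, a stathmin of neurites and growth cones, had 12128 and 10730 at 24 h and 14356 and 13510 at 48 h, which put it between percentiles 99.4 and 99.7 of the probe sets of its array. Both 48 h values of Stmn2 were above both 24 h values. Gap43, a growth-cone protein kinase C substrate, had 8361 and 5782 at 24 h and 8408 and 6954 at 48 h, between percentiles 98.1 and 99.1. The Gap43 values of the 2 times overlapped. Tubb3, the beta-tubulin used as a marker of neurons, was read on U74Av2 only, where its 2 probe sets had deposited signals of 13344 and 8781 at 24 h and 15059 and 10622 at 48 h, all at or above percentile 99.1. Like the tubulins named above, Tubb3 may share signal with its family, and its own values are uncertain. A second probe set of Stmn2 gave 9032 on average, and a further one gave 46.9, below the limit for testing.

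All 13 measured genes of a 17-gene neuronal list lay above the filter limit in all 4 arrays, with a median mean signal of 1342.5, against 228.7 over all named genes. Dcx, which stabilises microtubules in migrating neurons, averaged 7226 ± 581 (SD, n = 4), and Uchl1, a ubiquitin hydrolase of neurons, 8418 ± 689. Of the neurofilament genes of mature axons, Nefl lay between 136 and 177 and Nefm between 70.1 and 160, while Ina, the neurofilament of young neurons, ran from 4866 to 7053. Since these are different probe sets, their levels are given as read and not ranked. Map2, of dendrites, and Syt1, the calcium sensor of vesicle release, depended on the design of the array. Map2 had 1765 and 1037 on U74A at 24 h and 48 h but 110 and 87.6 on U74Av2, and Syt1 had 2346 and 2535 against 369 and 121.

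Genes of both cortical neuron classes were detected. Among 10 measured genes of glutamatergic projection neurons, 8 lay above the limit in all arrays, led by Lmo4 (3073 to 4977), Tbr1 (3177 to 4250), Mef2c (2659 to 3534) and Neurod6 (1778 to 2614). Tbr1 is a transcription factor of early-born deep-layer neurons, and Neurod6 one of postmitotic projection neurons. Fezf2, which specifies deep-layer neurons that project below the cortex, had 878 and 1355 at 24 h and 955 and 1696 at 48 h, with U74Av2 above U74A at both times. Camk2a, a kinase subunit of mature projection neurons, lay between 9.2 and 26.9, under the limit in every array, and Camk4 between 33.9 and 94.2.

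Among 14 measured interneuron genes, 12 lay above the limit in all 4 arrays. Gad1, which makes GABA, had 3577 and 1883 at 24 h and 3195 and 1985 at 48 h, and Slc32a1, which loads it into vesicles, ran from 1401 to 1865. The neuropeptides Sst and Npy marked their interneuron classes, with Sst between 2677 and 3505 and Npy between 760 and 1519. Dlx1, Dlx2, Dlx5 and Lhx6, transcription factors of cells born in the ganglionic eminences, spanned from 356 (Dlx5) to 1647 (Dlx1) over the 4 arrays. Vip lay between 7.7 and 47.5, under the limit in every array. Gad2 had 134 and 10.3 at 24 h and 65.4 and 40.3 at 48 h, under the limit on U74Av2 at both times. Pvalb ran from 1104 to 1713 by its bright probe set and from 8.1 to 26.0 by another, under the limit in all arrays. For Gad1, Slc32a1, Npy, Dlx1, Dlx2 and Lhx6 the U74A value was above the U74Av2 value at both times. These are bulk samples, in which fewer cells of a type and less RNA per cell cannot be told apart.

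Glial genes ranged from among the brightest probe sets to near the limit. Fabp7 (above) and Apoe, the lipid carrier made by astroglia, were bright, with Apoe at 7147 and 4825 at 24 h and 8722 and 6876 at 48 h. Gja1, the gap junction protein of astroglia, had 1772 and 773 at 24 h and 2351 and 1078 at 48 h. Gfap, the intermediate filament of mature and reactive astrocytes, lay near the middle of the arrays, with 292 and 320 at 24 h and 334 and 264 at 48 h, percentiles 58.0 to 62.7. Aqp4, the water channel of astrocyte end-feet, had 371 and 216 at 24 h and 330 and 225 at 48 h, percentiles 55.2 to 63.2. For both genes the values of the 2 times overlapped. Vim, an intermediate filament of radial glia and other cells, had 59.6 to 77.9 and S100b 29.3 to 63.4, and of 11 measured genes of the list 9 were above the limit in all 4 arrays. The second probe sets averaged 75.8 for Gfap and 121 for Aqp4.

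Progenitor genes were also read. Sox2, the transcription factor of neural stem cells, had 4796 and 2963 at 24 h and 3901 and 2880 at 48 h. Nes, the intermediate filament of progenitors, ran from 1081 to 1569, and Sox11, which acts in progenitors and in young neurons alike, from 4714 to 6367. Pax6, of dorsal radial glia, lay between 204 and 307. Eomes, of the intermediate progenitors that give rise to projection neurons, had 74.7 and 312 at 24 h and 20.0 and 225 at 48 h, with U74Av2 above U74A at each time. Of 8 measured genes 7 were above the limit in all arrays.

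Markers of cells from outside the neural lineage were read in part. Cd68, a lysosomal protein of microglia and macrophages, had 171 and 131 at 24 h and 214 and 126 at 48 h, between percentiles 46.3 and 51.5. Of 14 measured microglial genes 6 lay above the limit in all 4 arrays and 4 in none, among them Aif1 (10.0 to 20.6), Itgam (6.4 to 10.0) and Ptprc (6.3 to 8.4), the last 2 being surface proteins that define leukocytes. The complement gene C1qc (139 to 305) and the fractalkine receptor Cx3cr1 (167 to 331) lay above the limit in all arrays, as did Cd14, a receptor of innate immune cells, with 200 to 320 (percentiles 55.6 to 61.2). The summed signal of the microglial list ran from 979 to 1796 over the 4 arrays, with the lowest sum in the 48 h U74Av2 array.

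In the oligodendrocyte lineage the precursor gene Pdgfra was above the limit and most myelin genes were not. Cspg4, Olig1 and Olig2 were not among the measured genes. Pdgfra, a growth factor receptor of oligodendrocyte precursors, had 1567 and 532 at 24 h and 1362 and 1092 at 48 h. Sox10, a transcription factor of the whole lineage, had 304 to 439 by its bright probe set. A dimmer probe set of Sox10 had 25.2 to 43.6, under the limit in all arrays. Mog, Mag, Cnp and Mobp lay between 1.7 and 40.6 and were under the limit in all arrays, while Mbp, whose locus also gives transcripts outside myelin, ran from 250 to 355. None of 8 measured endothelial genes was above the limit in all arrays, and Cdh5 (5.2 to 10.4), Cldn5 (8.5 to 21.0) and Tie1 (8.5 to 11.6) were near the bottom. Of 11 measured genes of fibroblasts, mural and meningeal cells 6 were above the limit in all arrays and 0 in none, with Col1a1 between 281 and 405, Acta2 between 259 and 401 and Fn1 between 489 and 577, percentiles 71.2 to 73.3. Of 7 erythroid genes 2 were above the limit in all 4 arrays, and the alpha-globin Hba-a1 had 87.0 to 211. By these counts 13 of 13 measured neuronal genes, 9 of 11 astroglial, 7 of 8 progenitor, 6 of 14 microglial, 6 of 11 fibroblast and mural, 3 of 7 oligodendroglial, 2 of 7 erythroid and 0 of 8 endothelial genes lay above the limit in all 4 arrays. The counts describe these probe sets and give no shares of cells.

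**Figure D2:**
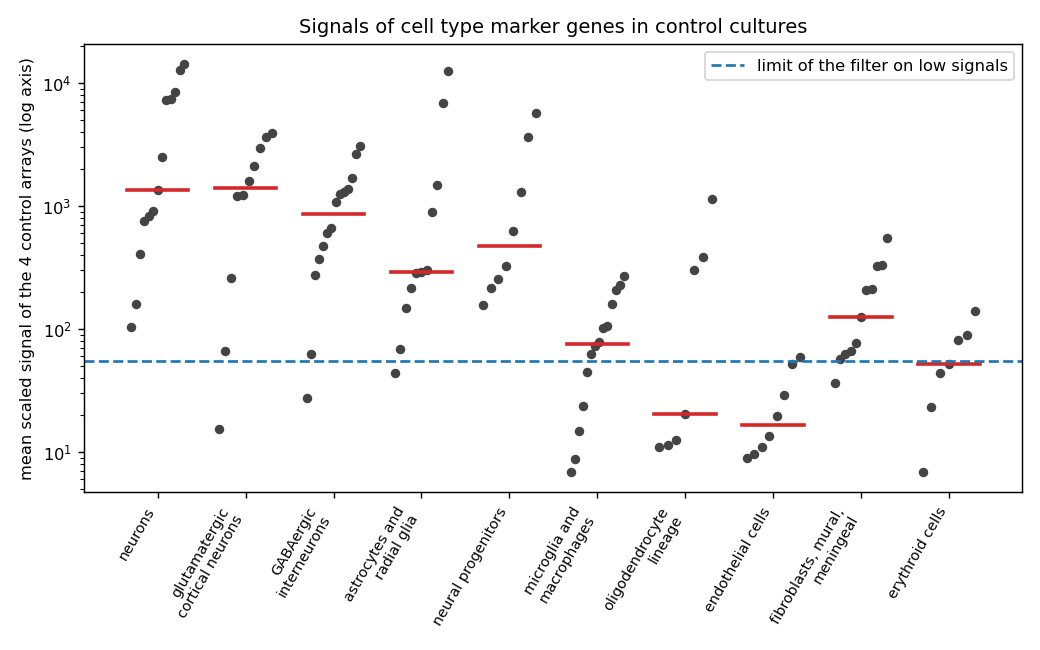
Mean scaled signal over the 4 control arrays (log axis, arbitrary units) of each measured marker gene, 1 point per gene, grouped by cell type, with a red line at the median of each list and a dashed line at the limit of 54.7. The list medians run from 16.6 in endothelial cells to 1408.8 in glutamatergic cortical neurons.

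Synaptic machinery was present at several levels of signal. Vamp2, the vesicle SNARE, had 4168 and 4615 at 24 h and 4575 and 4851 at 48 h, and its partner at the plasma membrane Snap25 ran from 1902 to 3423. Stx1a, the third protein of that complex, lay between 880 and 1667. Among receptors, the AMPA subunit Gria2 was the brightest of the list, from 5093 to 6453, beside Gria1 from 1015 to 1425, while Gria3 lay between 59.4 and 105 and Gria4 at 82.4 or less. Of the NMDA receptor subunits Grin2b, the subunit of young neurons, had 20.2 to 108 and Grin2a, which follows later in development, 11.1 to 54.3. The GABA-A subunits Gabra2 (611 to 689) and Gabrb1 (666 to 976) were above the limit throughout. Camk2b and Prkcb, kinases of calcium signalling, ran from 2901 to 3437 and from 1760 to 3007.

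Neuropeptide and ion channel genes differed widely among themselves. Cpe, which trims peptide precursors, had 7250 to 9599, and the granin genes Scg5, Chgb and Scg3 ran from 1032 (Scg3) to 1951 (Scg5). Cck had 1296 to 2468, whereas Tac1 (34.4 to 74.3), Vip and Pdyn (3.9 to 10.9) were near or under the limit. Of 16 measured voltage-gated channel genes 8 were above the limit in all arrays, among them Hcn2, a pacemaker channel (719 to 1160), Cacna1c, an L-type calcium channel (612 to 681), and Kcnd2, an A-type potassium channel (290 to 533). Kcna1, Kcna4 and Scn3a were under the limit in all 4 arrays.

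Lipid, chaperone and stress genes ranged from among the brightest probe sets to the bottom of the arrays. Of 12 measured genes of cholesterol synthesis and uptake, Fdps (6791 to 11888), Hmgcs1 (5051 to 7724) and Sqle (4234 to 5898) were the brightest, and Insig1 (3.2 to 12.5) was under the limit. The chaperones Hsp90aa1 (10057 to 12569) and Hspa8 (5474 to 6598) were bright, and the inducible Hspa1a (227 to 424), Hspb1 (5.9 to 52.2) and Bag3 (73.5 to 115) were not. Metallothioneins were well above the limit, with Mt1 between 1596 and 2282, Mt2 between 4545 and 5549 and the neural form Mt3 between 4612 and 7736. The antioxidant genes Nqo1 (20.4 to 43.3) and Slc7a11 (9.0 to 30.8) lay under it in all 4 arrays. Among immediate early genes Jund (6348 to 8283) was bright and Fosb (147 to 311), Egr1 (232 to 404) and Nr4a1 (78.6 to 191) were modest. Of the death genes Fas (0.7 to 5.2) and Casp8 (2.6 to 6.5) were near 0, while Apaf1, which activates caspase 9, ran from 496 to 632.

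The next question was whether the control cultures changed between 24 h and 48 h, the span over which the treated ones were followed. Differences below are 48 h minus 24 h on the log2 scale, each the mean of the difference within U74A and that within U74Av2, with the spread taken from all 10 arrays. By limma, 0 of 6984 probe sets (0%) passed an adjusted p of 0.05, and the lowest adjusted p was 0.393. Without adjustment 391 (5.6%) had a p under 0.05, 144 (2.06%) higher and 247 (3.54%) lower at 48 h. That unadjusted count ran from 93 without the design covariate to 695 on the U74Av2 arrays alone. Among the 23 alternative settings only those without a 24 h control array gave any call. Leaving out the 24 h control on U74A gave 1 call, Atf5 at -1.46 (adjusted p = 0.0312), and leaving out the 24 h control on U74Av2 gave 2, Abcb8 at 1.65 and an unnamed probe set at 2.49 (adjusted p = 0.0248, limma). These were named after their values were seen. A permutation of 2 arrays against 2 could not go below an exact two-sided p of 0.333.

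The 2 array pairs gave largely unrelated differences. Across the 6984 probe sets the correlation between the U74A and the U74Av2 difference was 0.02, a description over probe sets that are not independent, and 49.4% had the same sign in both. Differences beyond 0.5 in both designs were found for 24 probe sets upward and 59 downward, and for 57 in opposite directions. The median standard error was 0.18, and 21 probe sets had a mean difference of at least 1 in size. The excess of lower values differed with signal and with scaling. The median over all 6984 probe sets was -0.03, and 0.06 with scaling to the median. In the lowest-signal tier of 2328 probe sets the median difference was -0.14 within U74Av2 and -0.01 within U74A, in the middle tier -0.06 and -0.01, and in the highest 0.04 and 0.01. The Gapdh ratio and the share of low signals given above differed between the 2 U74Av2 arrays as well, and their part in these medians was not tested.

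**Figure D3:**
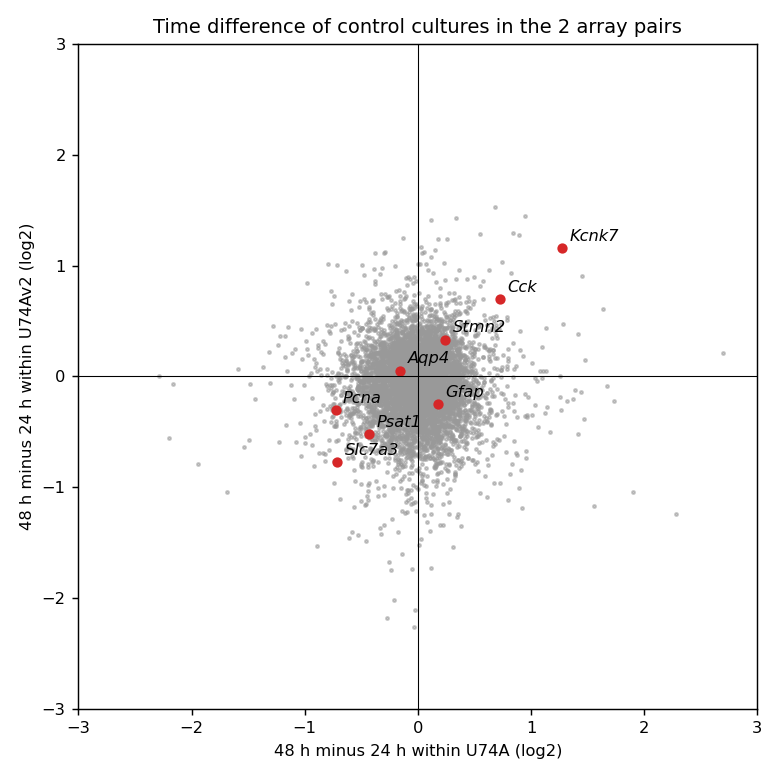
Difference of 48 h minus 24 h (log2) within U74A on the x axis and within U74Av2 on the y axis for 6984 probe sets (grey), with 8 genes in red. The cloud has no slope (r = 0.02), and Kcnk7, Cck, Stmn2, Pcna, Psat1 and Slc7a3 lie in quadrants of equal sign.

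The genes with the largest differences held by both designs are given as values, since none passed. A lack of overlap between 2 arrays and 2, here and below, has an exact two-sided permutation p of 0.333. It is likelier in genes picked for a large difference, and the share of all genes without overlap was not counted. Cck, the peptide cholecystokinin of cortical neurons, had 1482 and 1296 at 24 h and 2468 and 2119 at 48 h. Both later arrays were above both earlier ones, and the difference was 0.71 ± 0.15 (SE; 95% interval 0.38 to 1.04, adjusted p = 0.433, limma). Among the settings tried it ran from 0.65 to 0.81. Kcnk7, a two-pore potassium channel family member, had 88.2 and 39.6 at 24 h and 259 and 127.5 at 48 h, a difference of 1.22 ± 0.27. The times did not overlap for Kcnk7 either, and its later U74A value was the highest. Cdc16, a subunit of the anaphase-promoting ubiquitin ligase, had 614 and 699 at 24 h and 965 and 1390 at 48 h, a difference of 0.79 ± 0.16 (adjusted p = 0.399).

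Further genes were higher at 48 h in both designs. Zbtb17, a transcription factor that pairs with Myc, had 40.9 and 200 at 24 h and 109 and 599 at 48 h, so the designs differed more than the times and the time groups overlapped. Slc29a2, a nucleoside transporter, had 62.0 and 64.6 at 24 h and 134 and 152 at 48 h, with no overlap. For Ints11, S100a1, Pax5, Vipr2 and Myo1c at least 1 of the 24 h values was under the limit of 54.7, and their differences ran from 0.72 (Myo1c) to 1.12 (Vipr2). Kcnk7 and Zbtb17 also had a 24 h value under that limit, at 39.6 and 40.9 in turn. For S100a1 and Pax5 only 1 of several probe sets was bright enough to be tested.

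In the opposite direction Gadd45g, a growth-arrest gene of the stress response that is also expressed as neural progenitors differentiate, had 435 and 387 at 24 h and 247 and 215 at 48 h. The times did not overlap, and the difference was -0.75 ± 0.15 (SE; 95% interval -1.09 to -0.42, adjusted p = 0.399, limma). Slc7a3, a cationic amino acid transporter, had 468 and 886 at 24 h and 273 and 504 at 48 h, a difference of -0.74 ± 0.14. U74Av2 read Slc7a3 higher at both times, and within each design the later value was the lower one. Slc25a3, the mitochondrial phosphate carrier, had 123 and 103 at 24 h and 56.0 and 47.7 at 48 h. H2-Bl, a histocompatibility gene that belongs to a family of near-identical members and is therefore uncertain, had 281 and 324 at 24 h and 155 and 151 at 48 h. Prl, Cntrob, Ighv3-6, Tnfsf9 and Ly6g6c were further members of the set, with later values between 17.5 and 79.1 and differences from -1.37 (Ighv3-6) to -0.76 (Ly6g6c).

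Markers of the cell types gave small differences with wide intervals. Stmn2 was 0.29 ± 0.12 (SE) higher at 48 h (95% interval 0.03 to 0.54, adjusted p = 0.883, limma), with the second bright probe set at 0.09. The difference of Gap43 was 0.14 ± 0.10 (95% interval -0.08 to 0.36). That of Gfap was -0.04 ± 0.16 (-0.40 to 0.32), of Aqp4 -0.05 ± 0.19 (-0.47 to 0.37) and of Cd68 0.12 ± 0.29 (-0.52 to 0.76). The signs of the last 3 genes turned with the scaling, the design or a left-out array, so they carry no direction. For Gfap and Aqp4 scaling to the median or quantile normalization was enough to turn the sign.

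The median over all 5541 tested named genes was -0.02 (0.01 within U74A and -0.03 within U74Av2), and the medians of the marker lists lay on both sides of it. The 13 neuronal genes had a median of 0.05, the 10 astrocytic and radial glial genes 0.05, the 13 interneuron genes -0.02 and the 10 microglial genes -0.01, and 0 genes passed in any list. The 3 tested oligodendroglial genes had a median of 0.13, the 10 fibroblast and mural genes -0.10, the 4 erythroid genes 0.03 and the 2 endothelial genes -0.41. Snap25 was 0.44 ± 0.16 higher at 48 h, with values of 1902 and 2305 against 2379 and 3423, which did not overlap. Gja1 was 0.43 ± 0.17 higher at 48 h by its bright probe set and 0.02 by a dimmer one, in which the designs opposed each other. The glutamate transporter Slc1a2, of astrocytes, was -0.99 ± 0.27 with 260 and 136 at 24 h and 163 and 31.5 at 48 h. The Slc1a2 values of the times overlapped, and genes of 1 cell type thus pointed both ways. The 9 tested genes of projection neurons had a median of -0.10, with Neurod6 at -0.27 ± 0.12.

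Some synaptic and signalling genes had the same sign within both designs. Prkcb, a calcium-dependent protein kinase C, had 2376 and 1760 at 24 h and 3007 and 2811 at 48 h, with no overlap and a difference of 0.50 ± 0.14 (adjusted p = 0.707, limma). A second probe set of Prkcb, dimmer at 290 on average, gave -0.12. Gabrb1 had 666 and 679 at 24 h and 976 and 934 at 48 h, a difference of 0.49 ± 0.17, again with no overlap. Cacna1g, a T-type calcium channel, had 104 and 75.6 against 152 and 145, a difference of 0.58 ± 0.23. Over the lists the medians were 0.10 for 13 presynaptic genes, 0.03 for 14 receptor genes, 0.08 for 10 postsynaptic genes, -0.02 for 13 neuropeptide genes and -0.04 for 11 channel genes, and for each of these at least 1 alternative setting gave the opposite sign.

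The cell cycle and DNA replication list had the lowest median among the lists with at least 3 tested members. Of its 23 tested genes 17 were lower at 48 h within both designs and 1 was higher within both, and the median was -0.29 (-0.39 within U74A and -0.13 within U74Av2). None passed the adjusted test, and 6 had an unadjusted p under 0.05, all lower, where 3.47% of all tested genes did so. The same sign within both designs, higher or lower, was found for 48.5% of all tested genes. That share holds both directions, so the lower and higher counts of a list, here and below, are to be read together beside it. The share in 1 direction alone was not counted. Pcna, the sliding clamp of DNA polymerase, had 1940 and 2229 at 24 h and 1161 and 1801 at 48 h, a difference of -0.51 ± 0.16 (SE; 95% interval -0.86 to -0.17, adjusted p = 0.817, limma). Mcm4, of the replicative helicase, had 455 and 538 at 24 h and 311 and 378 at 48 h, a difference of -0.49 ± 0.13. Both genes were lower in both later arrays than in either earlier one.

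Proliferation and mitosis genes gave similar values. Mki67, a nuclear protein of dividing cells, had 489 and 521 against 291 and 413, a difference of -0.50 ± 0.20. Aurka and Plk1, kinases of mitosis, had differences of -0.47 ± 0.20 and -0.43 ± 0.18, and Cdk4, the kinase of the G1 phase, -0.36 ± 0.15. Birc5, a mitotic survivin, was higher at the later time on U74Av2, with 292 at 24 h and 437 at 48 h, and Ccnd1, whose product also acts outside dividing cells, was 0.15 ± 0.16 higher. The list median stayed below 0 in all 24 alternative settings, from -0.46 (without the 48 h control on U74Av2) to -0.12 (without that on U74A). The middle tier of all probe sets by signal, where the list's median signal of 403 lies, had a median of -0.01 within U74A and -0.06 within U74Av2.

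The tested progenitor genes had a median of -0.18 over 8 genes, 5 lower and 1 higher within both designs. Sox11 was -0.30 ± 0.12, Nes -0.24 ± 0.15 and Eomes -0.73 ± 0.48, while Id3, an inhibitor of differentiation factors, was 0.51 ± 0.20 higher with 153 and 185 against 201 and 319. A dimmer probe set of Sox11 gave -0.60. The summed signal of the progenitor list was 13834 and 12583 at 24 h and 11936 and 10718 at 48 h, and that of the cell cycle list 13046 and 13644 against 9945 and 11902. The later sums were lower than the earlier ones without overlap in both lists. A sum weighs bright probe sets most, and that of the progenitor list came mostly from Sox11 and Sox2. Sox11 had 6269 and 6367 at 24 h and 5610 and 4714 at 48 h, while the times overlapped for Sox2. The part of progenitor numbers in the cell cycle values was not tested.

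Promoters of the cell cycle genes were searched because most of the tested ones were lower within both designs, with motifs chosen after these values were seen. Genes of the list were searched whatever their direction, so the shares below describe the list and not the time difference. The windows run from 250 bases before to 50 after the start of each gene in RefSeq (GRCm38.p6), and 19 of the 24 measured genes had one. The letters CCAAT, the core bound by the factor NF-Y, were found on either strand in 16 of 19 genes (84.2%), and in 37.4% of all 32851 promoters, or 41.1% of the 27025 genes they belong to. The cell cycle homology element TTTGAA was found in 8 (42.1%, against 17.9% of promoters and 20.2% of genes). Of the E2F-type strings TTTCCCGC was found in 2 genes, TTTGGCGC in 3, TTTCGCGC in 4 and TTTGGCGG in 0, against 1.07%, 0.514%, 0.323% and 0.56% of all promoters. Over all genes the shares were 1.24%, 0.585%, 0.374% and 0.625% in the same order. The E-box CACGTG was in 1 gene (5.26%, against 7.15% of promoters and 8.09% of genes). No 2 of these strings are the same site, though they may lie over each other by a few letters. A match describes the letters and does not show a bound site, and where a string was not found only that window is meant. The 100 bases before the start of 3 genes with repeated CCAAT boxes, in capitals, are shown 5′ to 3′ on the strand of the gene, to set the sequence beside the values. These 3 were taken from the genes lower within both designs, Ccnb2 by only -0.025 within U74Av2. They are Ccnb2, a mitotic cyclin (-0.21 ± 0.18), at chr9:70421555-70421654 on the minus strand, Aurka at chr2:172370571-172370670 on the minus strand, and Rrm1, a subunit of ribonucleotide reductase (-0.29 ± 0.15), at chr7:102441595-102441694 on the plus strand.
Ccnb2: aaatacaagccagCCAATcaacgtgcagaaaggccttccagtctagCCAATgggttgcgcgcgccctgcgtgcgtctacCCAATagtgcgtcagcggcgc
Aurka: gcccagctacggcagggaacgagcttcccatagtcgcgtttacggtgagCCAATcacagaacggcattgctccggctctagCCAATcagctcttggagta
Rrm1: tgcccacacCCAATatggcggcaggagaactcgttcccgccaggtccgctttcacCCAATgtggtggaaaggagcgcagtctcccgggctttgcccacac

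The list of ATF4 and amino acid stress genes had the second lowest median of the lists with at least 3 tested members. It holds genes of amino acid supply and also transcription factors, among them Atf4, Cebpb and Ddit3. All 11 tested genes had a negative mean difference, from -0.47 (Psat1) to -0.16 (Atf4), and 9 were lower within both designs. Over all 6984 probe sets 44.7% had a positive difference. The list median was -0.28 (-0.18 within U74A and -0.45 within U74Av2), and 0 genes of the list passed. An unadjusted p under 0.05 was found for 4 of them, all lower, where 3.47% of all tested genes did so. Psat1, of serine synthesis, had 3303 and 4406 at 24 h and 2443 and 3064 at 48 h, which did not overlap, and a difference of -0.47 ± 0.10 (SE; 95% interval -0.70 to -0.25, adjusted p = 0.433, limma). Asns, asparagine synthetase, had 4059 and 6209 against 3369 and 4548, a difference of -0.36 ± 0.11. U74Av2 read Asns higher at both times, and the time groups overlapped. Slc3a2 and Slc7a5, the 2 chains of the large neutral amino acid transporter, were -0.28 ± 0.12 and -0.39 ± 0.20, and Cebpb, a stress-responsive transcription factor, was -0.40 ± 0.18. The transfer RNA synthetase genes Gars, Sars and Aars lay between -0.29 and -0.22. Slc7a3 (above) is not on the list and was named for its lower values at 48 h, so its sign adds nothing to the list. The list median stayed below 0 in all 24 alternatives, from -0.45 to -0.18, and its median signal of 2117 lies in the highest tier, whose medians of 0.01 and 0.04 are given above. The 15 tested genes of p53 targets and apoptosis had a median of -0.11 (0.04 within U74A and -0.19 within U74Av2), with 3 higher and 4 lower within both designs, from -0.75 (Gadd45g) to 0.31 (Perp).

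The composite element to which ATF4 binds with C/EBP partners was searched as TGATGNAA on both strands of the same kind of window, again after the values were seen. It was found in 3 of 11 genes of the list with a promoter (27.3%), in 3.97% of all 32851 promoters and in 4.51% of the 27025 genes. In 8 genes these letters were not in the window. The 100 bases before the start are shown for 2 of the 3, with the element in capitals, because these genes carry the pattern of the list. Asns lies at chr6:7693210-7693309 on the minus strand and holds the element on the gene's strand, and Gars lies at chr6:55037901-55038000 on the plus strand and holds it on the opposite strand.
Asns: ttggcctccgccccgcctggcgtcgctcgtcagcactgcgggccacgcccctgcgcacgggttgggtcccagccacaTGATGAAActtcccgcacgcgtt
Gars: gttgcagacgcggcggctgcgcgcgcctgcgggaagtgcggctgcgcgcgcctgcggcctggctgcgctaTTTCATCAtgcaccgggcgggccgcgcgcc

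Bright housekeeping lists had small positive medians. The 14 tested ribosomal protein genes had a median of 0.09, with 9 higher and 0 lower within both designs, and Rpl22 stood out with 887 and 1254 against 1564 and 1412 (0.48 ± 0.15). The 27 respiratory chain genes had a median of 0.07, with 12 higher and 3 lower within both designs, and a range of -0.19 (Cycs) to 0.23 (Cyc1). The 13 glycolysis genes had a median of 0.09, and Ldha, which makes lactate, had 4247 and 5430 against 4919 and 6670 (0.25 ± 0.14). Bright probe sets as a whole had a median of 0.02 and 55.9% had a positive difference, beside which these medians and counts are to be read. The ribosomal median kept its sign in all alternatives, from 0.02 to 0.19, and the respiratory chain median reached -0.002 in 1 of them.

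The chaperone, antioxidant and cholesterol lists had medians of opposite sign in the 2 designs. The 18 chaperone genes had a median of -0.01 and the 15 antioxidant and metallothionein genes 0.001, each with at least 1 alternative of the opposite sign. The 17 immediate early genes had -0.12 (-0.11 within U74A and -0.08 within U74Av2), with 3 higher and 7 lower within both designs. Their median had the opposite sign in 1 of 24 alternatives. The 11 cholesterol genes had 0.20 within U74A and -0.32 within U74Av2, so the designs opposed each other. Hsd17b7, of the late steps of sterol synthesis, was lower in both with 344 and 203 at 24 h and 201 and 77.6 at 48 h, -0.90 ± 0.22. Dusp6, a phosphatase that dampens ERK signalling, was 0.40 ± 0.16 higher with 643 and 606 against 777 and 892. The time groups did not overlap for either gene, though for Hsd17b7 the nearest values, 203 at 24 h and 201 at 48 h, were close.

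**Figure D4:**
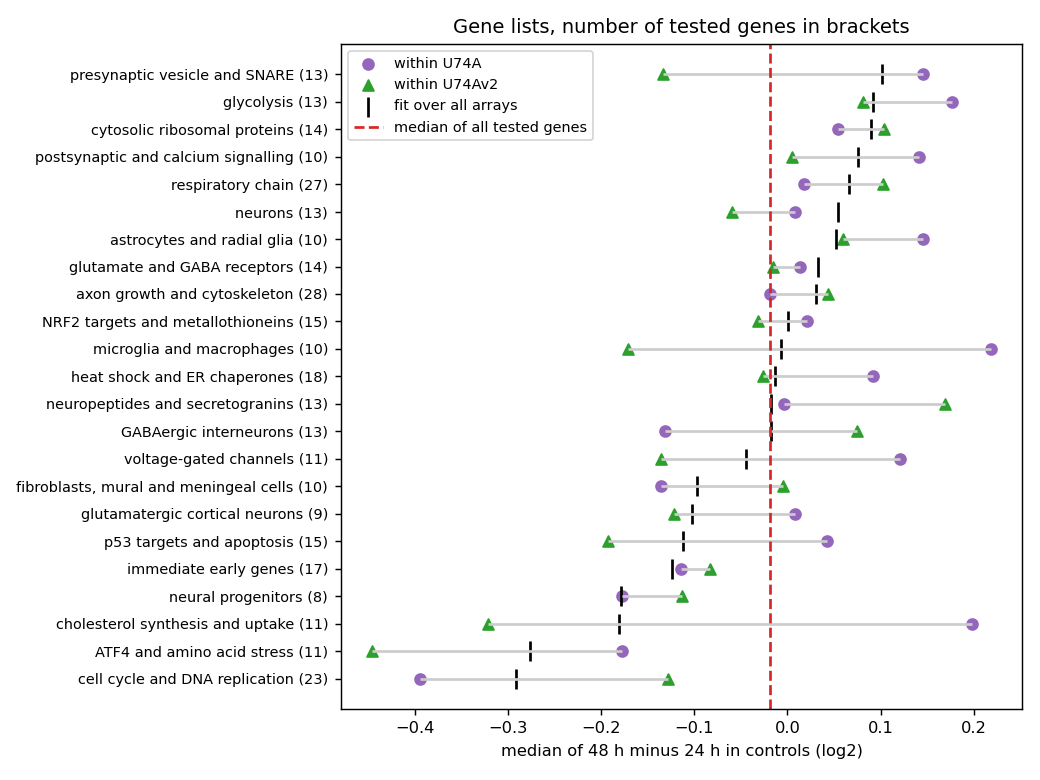
Median difference of 48 h minus 24 h in controls (log2) for each list with at least 8 tested genes, with the number of tested genes in brackets, circles for U74A, triangles for U74Av2, a bar for the fit over all arrays and a dashed line at the median of all tested genes. The cell cycle list (-0.29) and the ATF4 list (-0.28) lie lowest, and the cholesterol and microglial lists show designs on opposite sides of 0.

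**Figure D5:**
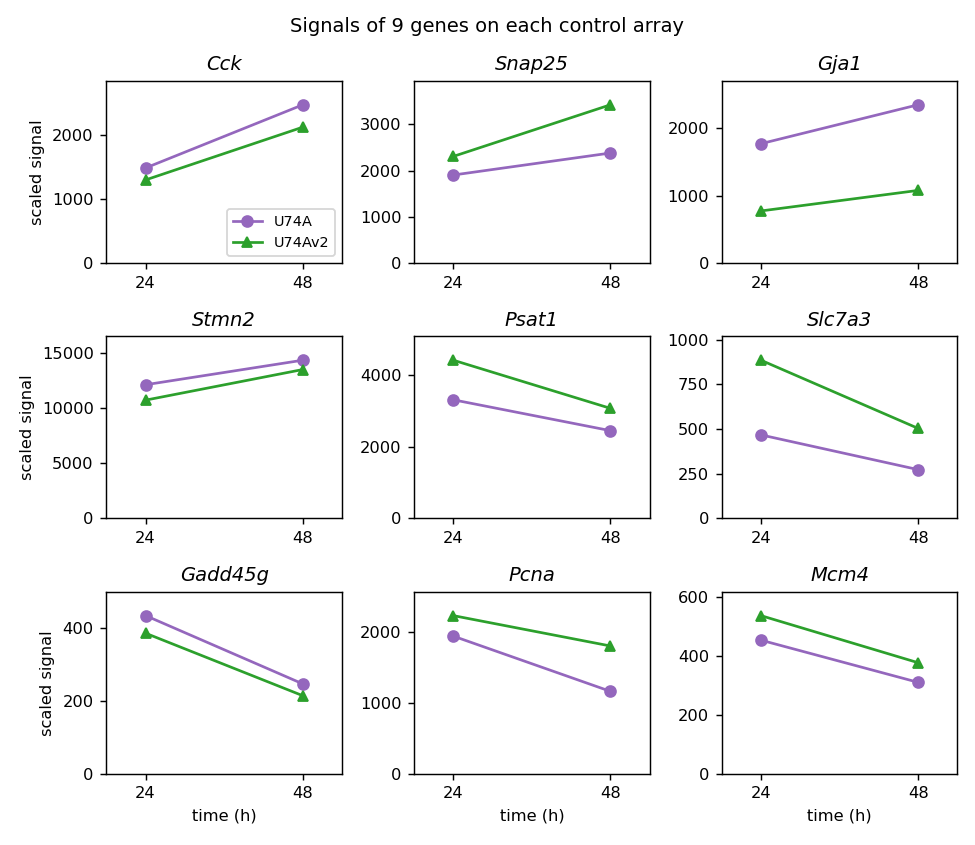
Scaled signal (linear axes from 0, arbitrary units) of 9 genes at 24 h and 48 h, with a line joining the 2 control arrays of each design (circles U74A, triangles U74Av2). Cck, Snap25, Gja1 and Stmn2 are higher and Psat1, Slc7a3, Gadd45g, Pcna and Mcm4 lower at 48 h on both lines.

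The time difference over the same span under lactacystin differed from that in controls for a limited set of genes. It was not in every one of them the larger of the 2 in size. The interaction, which is the 48 h minus 24 h difference with lactacystin less that in controls, passed for 86 of 6984 probe sets (1.23%) by limma, 29 upward (0.415%) and 57 downward (0.816%). With scaling to the median instead, 20 were upward and 146 downward, and the count without 1 control array ran from 5 (without the 48 h control on U74A) to 31 (without the 48 h control on U74Av2). Within the lactacystin cultures, with 3 arrays a time where the controls have 2, 808 probe sets (11.6%) passed between the times, 432 upward (6.19%) and 376 downward (5.38%). The controls enter the interaction as the value subtracted, and among the 10 genes below their own time difference lay between -0.29 and 0.18 for all but Zbtb17.

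Aqp4 and Gfap were the only 2 of the 10 tested genes of the astrocyte and radial glia list to pass, both upward, and the list's median interaction was 0.79. Gfap differed by -0.04 ± 0.16 over time in controls and by 2.01 with lactacystin, an interaction of 2.04 ± 0.21 (adjusted p = 0.00186, limma), and Aqp4 by -0.05 and 2.33, an interaction of 2.38 ± 0.25. The second probe sets gave 1.86 for Gfap (adjusted p = 0.0396) and 1.72 for Aqp4 (adjusted p = 0.0442). Pla2g7, a secreted phospholipase, and Plpp3, a lipid phosphate phosphatase found in astroglia, followed with 1.83 ± 0.29 and 1.65 ± 0.23, and Glycam1, a mucin, with 2.09 ± 0.31 from control signals of only 32.3 to 105. Downward, 6 of the 18 tested chaperone genes passed. Hspa1a, an inducible chaperone, had 0.15 ± 0.33 in controls and -2.59 with lactacystin, and Ier3 and Fosl1, both early response genes, had interactions of -2.07 ± 0.37 and -1.95 ± 0.33. Fosl1 lay between 10.6 and 14.6 in all control arrays, under the limit, and was tested through its level in treated arrays. Cyb5r1, a cytochrome b5 reductase, had -1.80 ± 0.25, while its other probe set gave -0.58. Zbtb17 is the one gene of these whose time difference was larger in size in the controls, at 1.20 ± 0.29 against -0.79 with lactacystin.

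Some genes with lower values at 48 h in controls also had an interaction that passed. Mcm4, the only one of 23 cell cycle genes to pass, had -0.49 in controls and 0.29 with lactacystin. Its interaction was 0.79 (adjusted p = 0.0442, limma), and that of Cebpb was -1.16 (adjusted p = 0.0393). Of the 11 tested ATF4 genes Cebpb and Ddit3 passed, both downward. For Slc7a3 the time difference was -0.74 in controls and -2.09 with lactacystin, an interaction of -1.34 ± 0.19 (adjusted p = 0.00808). These genes were named here after their values were seen. Cdc16, with 0.79 in controls, had -0.19 with lactacystin, an interaction of -0.98 (adjusted p = 0.0442, limma). Mcm4 and Cdc16 were named for their control differences, which the interaction subtracts, so part of each interaction comes from that choice. The interactions of Mcm4, Cebpb, Slc7a3 and Cdc16 were not followed through the alternative settings. Cck, Stmn2 and Gap43 had interactions of 0.11, 0.17 and -0.17, with adjusted p from 0.552 to 0.824, none of which passed.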

How the data were processed

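The authors deposited 1 intensity per probe set and array, and the tool was MAS5 per the submitters' processing notes (its version is not given in the sources used). The deposited tables of the 2 designs were joined on 10043 common probe sets, of which 66 control probe sets were left out, and 0 sample columns went unused. Signals were scaled to a 2% trimmed mean of 500, 32 was added and log2 taken, which understates the change of low genes. The 2993 probe sets (30%) with the lowest mean over all arrays were not tested. Array number limits the precision, and detection calls were not used here.

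Tests used limma 3.58.1 in R 4.3.3 (lmFit, eBayes with trend, two-sided) on all 10 arrays in 4 groups adjusted for array design (5 residual degrees of freedom), with Benjamini-Hochberg adjustment over 6984 probe sets. The fit was tested on simulated data. Every p, interval and SE of a gene is from it. Of the common probe sets 8724 had 1 symbol (8710 updated through RefSeq), 346 several and 907 none. The probe set with the highest mean over all arrays stood for its gene.

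Members, the 26 lists and rules were chosen with earlier results of these data known. Named genes were the 6 cell markers, the 25 brightest, the 10 in each direction whose smaller within-design difference was largest (none passed), up to 4 brightest and 3 most shifted members of each list, and the 5 largest interactions in each direction. Not every gene that this rule names is reported here. Others were named after their values were seen. Alternatives were other pseudocounts, scalings, filters, designs and variance models, and each array left out.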

Additional observations from a re-analysis of the deposited data

Results flagged for a closer look

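For 10 genes the time difference under lactacystin differed from that in controls by limma's interaction test, and values are log2 differences of the 2 time differences. Upward these were Aqp4 at 2.38, Glycam1 at 2.09, Gfap at 2.04, Pla2g7 at 1.83 and Plpp3 at 1.65. Downward they were Hspa1a at -2.74, Ier3 at -2.07, Zbtb17 at -1.98, Fosl1 at -1.95 and Cyb5r1 at -1.80. Gfap passed in all 22 alternatives, from 1.66 to 2.25. Aqp4 did not pass in 2 of 22, Hspa1a and Cyb5r1 in 3 of 22, Plpp3 in 4 of 22, Pla2g7 in 5 of 22, Ier3 in 10 of 22 and Zbtb17 in 12 of 22. Glycam1 did not pass in 4 of 21 and Fosl1 in 9 of 21. None changed direction. Without the 48 h control on U74A, Glycam1, Pla2g7, Plpp3, Hspa1a, Ier3, Zbtb17, Fosl1 and Cyb5r1 did not pass. Without the 24 h control on U74A, Glycam1, Pla2g7, Plpp3, Ier3, Zbtb17 and Fosl1 did not pass.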

How the results depend on the processing

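The count of 0 genes by time in controls held in every alternative but those that left out a 24 h control, where it was 1 or 2 (leave-one-out range 0 to 2). With the replicate number as a block beside array design it was 0, with 314 at an unadjusted p under 0.05, and 0 with 320 for the control arrays alone, where design is the replicate block. The pairing by number cannot be told apart from design in the controls. The count of interactions, 86, was 166 with scaling to the median, 48 without a filter, 2 without the design covariate, 12 on U74Av2 alone, 36 without a variance trend and 60 with the replicate block, and 5 to 186 when 1 array was left out, the highest without lactacystin 24 h replicate 1. The cause was not tested. With the array left out in turn, the interaction counts were 28 and 16 without the 24 h controls on U74A and U74Av2, 31 without the 48 h control on U74Av2, and 39 and 36 without lactacystin 24 h replicates 2 and 3.

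Of control time differences of named genes, 2068 of the alternative values kept their direction and 17 turned. Gfap became 0.049 with median scaling and 0.034 with quantile normalization, and ran from -0.242 to 0.167 when 1 array was left out. Aqp4 became 0.038, 0.003 and, on U74Av2 alone, 0.053, and ran from -0.212 to 0.111. Cd68 became -0.041 on U74Av2 alone and ran from -0.103 to 0.337. With 1 array left out Mbp ran from -0.081 to 0.094, Cx3cr1 from -0.021 to 0.405, Kdr from -0.709 to 0.162, Cplx1 from -0.728 to 0.05, Sc5d from -0.382 to 0.021 and Bag3 from -0.413 to 0.015. The array whose absence turned the sign was always a control: the 24 h control on U74A for Bag3, that on U74Av2 for Gfap, Mbp, Cplx1 and Sc5d, the 48 h control on U74A for Aqp4, Cd68, Mbp, Cx3cr1 and Kdr, and that on U74Av2 for Gfap. Leaving the lowest 50% out gave no value for the endothelial and erythroid lists. Where an array was left out, the lone array of its group was assumed to vary like the others. Dim probe sets limit the precision, with a median standard error of 0.23 in the lowest tier of signal and 0.14 in the highest.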
